A study of Mus musculus with 6 samples.

Results

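RNA was measured in mouse bone marrow for 10 genes of innate immune sensing: 8 Toll-like receptors (Tlr1, Tlr2, Tlr4, Tlr6, Tlr7, Tlr8, Tlr9 and Tlr13), the signalling adaptor Myd88 and the co-receptor Cd14. They were taken by symbol from a table of 14992 genes, all 10 were in it, and all 10 passed the filter on low counts. Whole bone marrow of Dnmt3a knockout mice, described in the labels as leukemic, had been transplanted into irradiated C57/BL6 recipients. Both groups carried the Dnmt3a knockout, so no comparison with marrow that has Dnmt3a was made here. The vehicle group (libraries 1, 2 and 3) and the inhibitor group (libraries 1, 3 and 5) received vehicle or a PI3Kalpha/beta inhibitor at 75 mg/kg for 21 days before the marrow was harvested. The sources used here give neither the age of the mice, nor what drove the knockout, nor how much of the marrow came from the host. The labels do not say that each library came from a separate mouse, so the p-values reflect library-to-library spread only, and that spread may in part be technical.

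Toll-like receptors are membrane proteins that bind molecules of microbes or of dying cells. Tlr1, Tlr2, Tlr4 and Tlr6 sit at the cell surface: Tlr2 pairs with Tlr1 or Tlr6 to bind bacterial lipopeptides, and Tlr4 binds lipopolysaccharide with the help of Cd14 and the protein of Ly96 (MD-2). Tlr7, Tlr8, Tlr9 and Tlr13 sit in endosomes and bind nucleic acids: Tlr7 and Tlr8 are RNA sensors, Tlr9 senses unmethylated CpG DNA and Tlr13 bacterial ribosomal RNA. All 8 signal through Myd88, which recruits IRAK kinases and leads to NF-kB and interferon regulatory factors. In the marrow these genes are known from monocytes, macrophages, neutrophils, dendritic cells and B cells, and class I PI3K acts downstream of several of the receptors.

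The members differ in where they lie and in the letters at their starts, which is shown first for the genes the results turn on. In mm10 (GENCODE M21), Tlr1 (chr5:64924679-64933563, minus strand) and Tlr6 (chr5:64952031-64960097, minus strand) are neighbours, 18467 bases apart. Tlr8 (chrX:167242696-167264329, minus strand) and Tlr7 (chrX:167304929-167330558, minus strand) are also neighbours, 40599 bases apart. Tlr9 lies at chr9:106222598-106226883 (plus strand) and Tlr2 at chr3:83836272-83841767 (minus strand). Promoters of 7 of the 10 members were taken from the RefSeq promoter table (GRCm38.p6, 250 bases before to 50 after a gene's start). Tlr4 and Tlr7 had no entry. Cd14 was not looked up, so its promoter is not in the counts below. The 4 promoters below belong to the dimer partners Tlr1, Tlr6 and Tlr2 and to Tlr9. Capitals mark 2 of the motifs searched on both strands. The first is GAGGAA, found in sites bound by PU.1, an ETS factor, and not shared by all ETS sites. The second is an interferon regulatory factor (IRF) site, GAAA and GAAA with any 2 bases between them. The C/EBP letters TTGCNNAA are in capitals too.
Tlr1 (chr5:64933509-64933808, minus strand, first of 2 listed starts): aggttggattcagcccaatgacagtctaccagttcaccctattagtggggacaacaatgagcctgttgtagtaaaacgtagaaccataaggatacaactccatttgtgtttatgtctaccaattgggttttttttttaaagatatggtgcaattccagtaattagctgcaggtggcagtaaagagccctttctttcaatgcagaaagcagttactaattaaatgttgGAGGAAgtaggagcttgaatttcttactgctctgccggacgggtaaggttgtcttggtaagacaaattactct
Tlr6 (chr5:64959117-64959416, minus strand, first of 2 listed starts): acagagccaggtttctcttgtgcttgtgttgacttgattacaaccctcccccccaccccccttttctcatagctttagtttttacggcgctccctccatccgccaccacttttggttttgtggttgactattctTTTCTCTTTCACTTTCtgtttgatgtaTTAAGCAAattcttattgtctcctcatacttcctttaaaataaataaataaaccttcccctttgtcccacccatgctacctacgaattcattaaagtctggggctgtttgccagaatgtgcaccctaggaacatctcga
Tlr2 (chr3:83841559-83841858, minus strand): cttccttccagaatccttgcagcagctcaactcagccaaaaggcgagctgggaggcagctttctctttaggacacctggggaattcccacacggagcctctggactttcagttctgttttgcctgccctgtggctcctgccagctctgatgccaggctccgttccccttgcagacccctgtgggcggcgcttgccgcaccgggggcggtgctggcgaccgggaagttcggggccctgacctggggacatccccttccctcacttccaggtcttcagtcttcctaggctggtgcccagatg
Tlr9 (chr9:106222348-106222647, plus strand): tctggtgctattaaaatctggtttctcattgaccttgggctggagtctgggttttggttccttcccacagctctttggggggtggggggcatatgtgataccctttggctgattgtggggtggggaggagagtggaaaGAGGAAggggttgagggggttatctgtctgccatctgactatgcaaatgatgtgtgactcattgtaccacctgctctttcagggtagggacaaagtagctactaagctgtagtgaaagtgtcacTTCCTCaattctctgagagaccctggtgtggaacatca

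The 7 members have 9 promoters in the table, 2 each for Tlr1 and Tlr6. GAGGAA or its reverse complement was found in 4 of the 9, 1 each of Tlr1, Tlr8, Tlr9 and Tlr13, and in 28.3% of 32851 promoters of the table. In Tlr9 it occurred 2 times, at bases -112 to -107 and 12 to 17 counted from the start as 0, and in Tlr1 once, at -23 to -18. The IRF letters were found in 2 of the 9 promoters, as 2 overlapping matches in Tlr6 (-116 to -107 and -110 to -101) and 1 in Myd88 (-40 to -31), against 3.44% of all promoters. The C/EBP letters were found in 3 of the 9, of Tlr6, Tlr8 and Tlr13, against 10.8%. The NF-kB letters, GGG and TTTCC with any 2 bases between them, were in 0 of the 9 and in 1.63% of all promoters. Tlr2 matched none of the 4 letter patterns in this window. Sites of the same factors written with other letters were not searched, so a missing match does not show that a site is absent. These are matches of letters, not measured sites.

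Tlr1 and Tlr6 also share coding sequence, which bears on how their reads can be told apart. Of the 50-base windows of the Tlr1 transcript, 15.3% occur in Tlr6, and 12.6% of the Tlr6 windows occur elsewhere, nearly all of them in Tlr1; the other 8 members share none with any other gene. The longest shared run of coding bases is 229 bases long, at positions 1468 to 1696 of the coding sequence of Tlr1 (chr5:64925537-64925765) and 1507 to 1735 of that of Tlr6 (chr5:64953828-64954056), both on the minus strand. It is printed because a read that falls wholly inside it fits both genes:
Shared run of Tlr1 and Tlr6: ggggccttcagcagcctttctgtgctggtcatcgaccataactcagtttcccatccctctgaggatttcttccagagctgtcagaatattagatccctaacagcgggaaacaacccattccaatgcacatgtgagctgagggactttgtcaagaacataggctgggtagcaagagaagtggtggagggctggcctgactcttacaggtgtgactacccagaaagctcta
The values of these 2 genes are therefore uncertain to that extent. The exons of Myd88 overlap those of Acaa1a on the opposite strand by 223 bases, and the library chemistry does not mark strand, so reads from that stretch cannot be assigned to 1 of the 2 genes.

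Total counts ran from 28198638 to 59384880 per library, so 1 read was worth at most 0.0372 CPM (a gene's reads scaled to a fixed total per library, on TMM-scaled library sizes). Vehicle 1 stood apart from the other vehicle libraries: its summed level of 10 macrophage markers was 5958 CPM against 1754 and 1951 CPM, and its erythroid marker sum was 4633 CPM against 1371 and 1548 CPM. Its stroma marker sum was 662 CPM against 283 and 288 CPM, and its neutrophil marker sum 37258 CPM against 60316 and 54175 CPM. Where leaving out vehicle 1 changed the call of a named gene, both values are given. Several marker lists moved with the groups, while the conventional dendritic cell, stroma and erythroid sums overlapped between them. For the calls counted here, the edgeR test given below called 1.19% of all genes tested lower and 0.633% higher. The macrophage sum ranged from 1754 to 5958 CPM in the vehicle group and from 481 to 733 CPM in the inhibitor group, and 4 of its 10 genes were called lower. The monocyte sum was 3211 to 3973 against 2185 to 2936 CPM, with 3 of 10 called lower. The neutrophil sum was 37258 to 60316 against 95992 to 116369 CPM, with 1 of 9 called higher (the tenth, Ly6g, was not in the table). The plasmacytoid dendritic cell sum was 154 to 159 against 115 to 133 CPM, with 1 of 8 called lower, and the conventional dendritic cell sum 62.97 to 78.1 against 68.5 to 86.2 CPM, with 1 of 7 called higher. Of these 7 conventional dendritic cell markers, 4 had a negative and 3 a positive log2 fold change. The B cell sum was 44.5 to 94.6 against 97.5 to 291 CPM, with 1 of 8 called higher, and the eosinophil sum 77.5 to 126 against 259 to 288 CPM, with 3 of 6 called higher. The T and NK cell sum was 97.1 to 140 against 61.96 to 79.2 CPM and the stroma sum 283 to 662 against 211 to 362 CPM, with 0 called in either. No marker in the table was at 0 in all libraries. In whole marrow, fewer cells of a type and less RNA per cell cannot be told apart, and the part of these shifts in the values below was not tested.

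The inhibitor comparison asked whether expression in Dnmt3a knockout marrow differed after PI3Kalpha/beta inhibition. Tlr1 and Tlr9 were lower in every inhibitor library than in any vehicle library, whereas the levels of Tlr2, Tlr4, Tlr6, Tlr7, Tlr8, Tlr13 and Myd88 overlapped between the groups and Cd14 was high in 1 vehicle library. By edgeR's quasi-likelihood test with Benjamini-Hochberg adjustment over 12806 genes (adjusted p under 0.05), 0 of the 10 genes were called. Over all genes tested, 1.19% were called lower and 0.633% higher, 1.83% in either direction. At an unadjusted p under 0.05, 2 of the 10 were lower and 0 higher, against 11.9% and 9.68% of all genes, and DESeq2's Wald test, run as an alternative, called 2 lower and 0 higher, against 7.23% and 4.9% of all genes. Groups that did not overlap were found for 2 of 10 genes, both lower in the inhibitor group, against 16.2% of all genes below and 14.4% above, 30.7% in either direction. The log2 fold change was negative for 8 genes and positive for 2, with a median of -0.20 against 0.00093 over all genes tested.

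**Figure D1:**
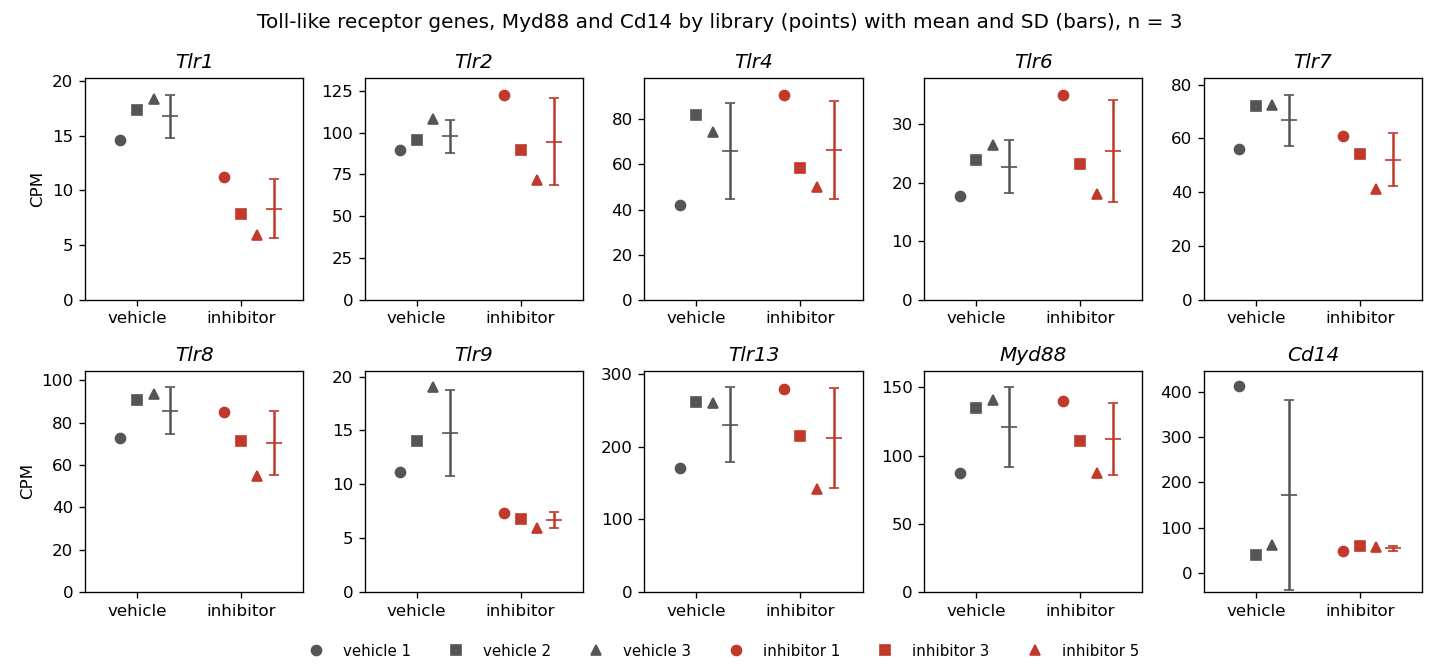
Level of each of the 10 genes in CPM (y axis, one scale per panel) in each vehicle (grey) and inhibitor (red) library, with bars for the mean and SD of 3 libraries. Tlr1 and Tlr9 show no overlap between the groups, and vehicle 1 is far above the other 5 libraries for Cd14.

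Among the surface receptors, Tlr1 was present at 14.6, 17.3 and 18.4 CPM in vehicle libraries 1, 2 and 3 and at 11.3, 7.81 and 5.89 CPM in inhibitor libraries 1, 3 and 5. The lowest vehicle library lay above the highest inhibitor library. The difference was -1.01 ± 0.25 (log2 fold change ± SE, n = 3 per group), with an unadjusted p of 0.0048 and an edgeR adjusted p of 0.081. It therefore missed the threshold, which it passed without vehicle 1 (-1.11, adjusted p = 0.037) and in DESeq2 (adjusted p = 0.0058).

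Tlr2, the shared partner of Tlr1 and Tlr6, was at 89.3, 95.7 and 108 CPM in the vehicle group and at 123, 89.4 and 71.6 CPM in the inhibitor group. Inhibitor libraries lay on both sides of the vehicle group, and the difference was -0.05 ± 0.20 (edgeR adjusted p = 0.91). Tlr6 was at 17.7, 23.9 and 26.6 CPM with vehicle and at 35.1, 23.2 and 18.1 CPM with inhibitor. Its groups overlapped, at 0.16 ± 0.27 (adjusted p = 0.75). Tlr4, the lipopolysaccharide receptor, was at 41.8, 81.8 and 74.6 CPM with vehicle and 90.9, 58.4 and 49.9 CPM with inhibitor. Its difference was 0.01 ± 0.31 (adjusted p = 0.99), and its groups overlapped.

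Cd14, which hands lipopolysaccharide to Tlr4, was at 414, 39.6 and 61.001 CPM in the vehicle group and at 47.3, 58.5 and 56.5 CPM in the inhibitor group. Vehicle 1 was the highest, and the other 5 libraries lay between 39.6 and 61.001 CPM. The log2 fold change was -1.66 ± 0.82 (edgeR adjusted p = 0.28), the largest in size and the least precise of the 10, and without vehicle 1 it was 0.10. The high level coincided with the high macrophage, erythroid and stroma marker sums and the low neutrophil sum of vehicle 1 given above, and their part in it was not tested.

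Among the endosomal receptors, Tlr9 was at 11.2, 14.1 and 19.0 CPM in the vehicle group and at 7.35, 6.74 and 5.92 CPM in the inhibitor group. All 3 inhibitor libraries were below all 3 vehicle libraries, and they lay within 1 narrow range. The log2 fold change was -1.15 ± 0.23, with an unadjusted p of 0.0014 and an edgeR adjusted p of 0.056. Without vehicle 1 it was -1.32 (adjusted p = 0.0090), and DESeq2 gave an adjusted p of 0.00050. B cells and plasmacytoid dendritic cells are known to express Tlr9. Of the 8 B cell markers, 6 had a positive and 2 (Ms4a1 and Cd22) a negative log2 fold change, with only Vpreb1 called, and of the 8 plasmacytoid dendritic cell markers 7 were negative, with only Klk1 called. The part of these cells in the Tlr9 level was not tested.

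Tlr7 was at 55.9, 72.1 and 72.3 CPM with vehicle and at 60.99, 54.0 and 41.3 CPM with inhibitor. Only inhibitor 1 reached into the vehicle range, and the difference was -0.36 ± 0.18 (edgeR adjusted p = 0.29). Its neighbour Tlr8 was at 72.8, 90.5 and 93.6 CPM with vehicle and 84.9, 71.2 and 54.6 CPM with inhibitor, at -0.29 ± 0.19 (adjusted p = 0.40). Tlr13 had the highest CPM of the 8 receptors, at 171, 261 and 260 CPM with vehicle and 280, 214 and 142 CPM with inhibitor. Its inhibitor libraries enclosed the vehicle range, and the difference was -0.12 ± 0.28 (adjusted p = 0.83). Myd88, the shared adaptor, was at 86.9, 135 and 141 CPM with vehicle and at 140, 110 and 87.2 CPM with inhibitor. The groups covered nearly the same range, at -0.10 ± 0.24 (adjusted p = 0.83).

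**Figure D2:**
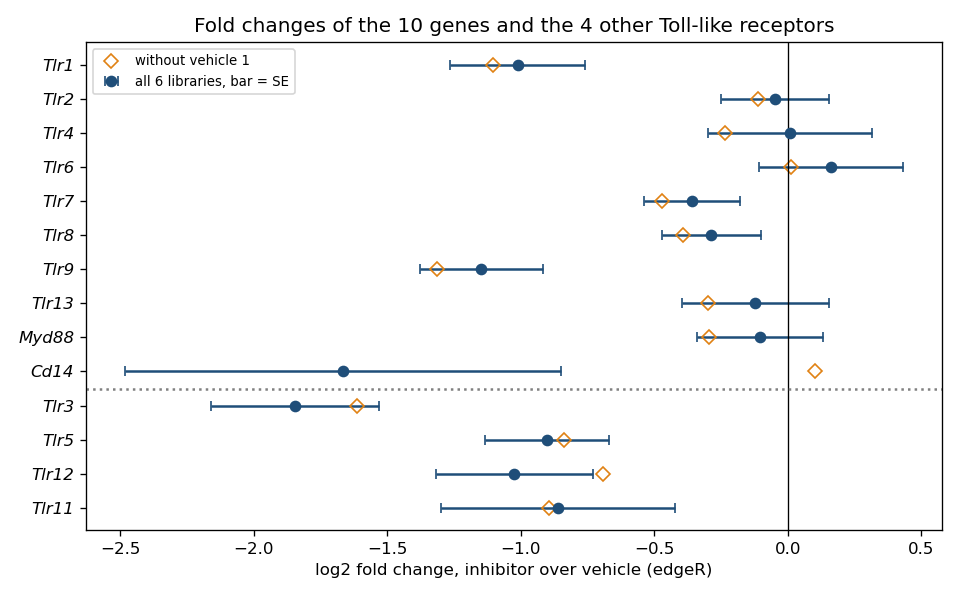
Log2 fold change of inhibitor over vehicle (x axis) for the 10 genes and, below the dotted line, the other 4 mouse receptors tested. Filled points with SE bars use all 6 libraries and open diamonds leave out vehicle 1, which moves Cd14 from -1.66 to 0.10.

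In all 8 receptors and Myd88, vehicle 1 was the lowest vehicle library, inhibitor 1 the highest inhibitor library and inhibitor 5 the lowest. Cd14 alone of the 10 did not have this order. Over all genes tested, 18.7% had all 3 features together. The mean centred log2 level of the 8 receptors was -0.13, 0.28 and 0.37 in vehicle libraries 1, 2 and 3 and 0.20, -0.18 and -0.53 in inhibitor libraries 1, 3 and 5. The neutrophil, monocyte and conventional dendritic cell marker sums had the same 3 features. A sum follows its most abundant genes, and single markers differed. The neutrophil markers had the 3 features except S100a8 and Camp. Of the monocyte markers, F13a1, Ly6c2, Ccr2 and Klf4 had them and the others did not. Of the conventional dendritic cell markers, only Flt3 had them. The neutrophil sum was 37258, 60316 and 54175 CPM with vehicle and 116369, 107381 and 95992 CPM with inhibitor, where it was higher. The monocyte sum was 3211, 3973 and 3912 CPM with vehicle and 2936, 2443 and 2185 CPM with inhibitor, where it was lower. The conventional dendritic cell sum was 62.97, 71.7 and 78.1 CPM with vehicle and 86.2, 82.2 and 68.5 CPM with inhibitor, with overlapping groups. The part of these cells in the order was not tested.

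The genes outside the pathway and marker lists whose centred profile over the 6 libraries was most like that receptor mean were Lcp2, an adaptor of immune receptor signalling, Kif1b and Kif3b, kinesin motors, Creld2, a protein of the endoplasmic reticulum, and Hdac4, a histone deacetylase. Lcp2 differed from the receptor mean by a root mean square of 0.027 on the log2 scale. The values for the other 4 ran from 0.069 for Kif1b to 0.074 for Hdac4. The median over the 9536 genes compared was 0.38, and the members themselves ran from 0.062 to 0.37. Lcp2 was at 156, 217 and 235 CPM with vehicle and at 202, 157 and 122 CPM with inhibitor, and was not called (edgeR adjusted p = 0.42). Each profile rests on 6 points from 2 groups, so likeness is a description of these libraries.

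Levels were compared between genes per kilobase of gene length (RPKM, computed here from the deposited counts and lengths). In the vehicle group the order of means was Cd14 (103 ± 127 RPKM, SD, n = 3), Myd88 (63.4 ± 15.5), Tlr13 (57.5 ± 12.9), Tlr2 (34.3 ± 3.4), Tlr8 (27.1 ± 3.6), Tlr4 (17.2 ± 5.5), Tlr7 (16.8 ± 2.4), Tlr6 (8.74 ± 1.74), Tlr1 (5.49 ± 0.65) and Tlr9 (4.25 ± 1.14). The first place of Cd14 came from vehicle 1 at 249 RPKM; in vehicle 2 and 3 it was at 23.8 and 36.7 RPKM. Neighbours whose libraries overlapped were Cd14 and Myd88, Myd88 and Tlr13, Tlr4 and Tlr7, and Tlr1 and Tlr9. Tlr2, Tlr8 and Tlr6 were thus each separated from both neighbours in the order. In the inhibitor group Myd88 led with 73.3, 57.9 and 45.8 RPKM in libraries 1, 3 and 5, followed by means of Tlr13 52.8, Tlr2 33.1, Cd14 32.6, Tlr8 22.2, Tlr4 17.3, Tlr7 13.1, Tlr6 9.79, Tlr1 2.72 and Tlr9 1.92 RPKM, and apart from Cd14 the order did not change. There, only Cd14 and Tlr8, and Tlr6 and Tlr1, were neighbours without overlap. The gap between Tlr6 and Tlr1 was 1.59-fold with vehicle and 3.60-fold with inhibitor.

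**Figure D3:**
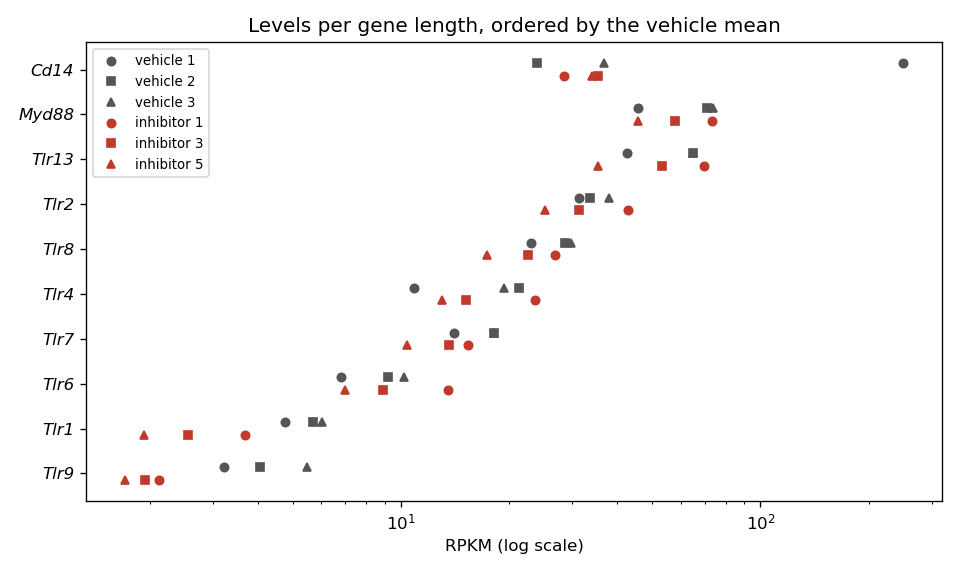
Level per gene length (RPKM, log axis) of the 10 genes in each of 6 libraries, ordered by the vehicle mean. Myd88 and Tlr13 lead in nearly all libraries, Tlr1 and Tlr9 are lowest, and the single point near 249 RPKM is Cd14 in vehicle 1.

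Ratios of partner genes within a library do not depend on how libraries are scaled, and 9 pairs were compared. The counts of Tlr1 per count of Tlr2 were 0.163, 0.181 and 0.170 in the vehicle group and 0.0918, 0.0874 and 0.0822 in the inhibitor group. Each group was tight and they did not overlap: the mean ratio was 0.171 ± 0.0091 (SD, n = 3) with vehicle and 0.0872 ± 0.0048 with inhibitor, a log2 difference of -0.97. For the alternative partner, Tlr6 per Tlr2 was 0.199, 0.250 and 0.245 with vehicle and 0.286, 0.259 and 0.253 with inhibitor. Here the inhibitor libraries were all higher, by 0.21 on the log2 scale. With 3 against 3 libraries the smallest p of the exact two-sided permutation test is 0.1, which both pairs reached (0.18 after Benjamini-Hochberg adjustment over the 9 pairs).

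Tlr9 per Tlr7 was 0.200, 0.195 and 0.263 with vehicle and 0.121, 0.125 and 0.143 with inhibitor. The inhibitor libraries were all lower, with a log2 difference of -0.75 (exact permutation p = 0.1). Tlr8 per Tlr7 was nearly constant, at 1.30, 1.26 and 1.29 with vehicle and 1.39, 1.32 and 1.32 with inhibitor. Its groups were apart too, but by 0.07 on the log2 scale (exact permutation p = 0.1). Ly96 per Tlr4 was 0.104, 0.0699 and 0.0762 with vehicle and 0.0530, 0.0599 and 0.0601 with inhibitor, lower by 0.51 on the log2 scale in ranges that did not overlap (exact permutation p = 0.1). Cd14 per Tlr4 was 9.91, 0.484 and 0.818 with vehicle and 0.521, 1.00 and 1.13 with inhibitor, and only vehicle 1 was high (exact permutation p = 0.9). The ratios of Tlr4 to Tlr2 (exact permutation p = 0.8), Tlr13 to Tlr7 (p = 0.3) and Myd88 to Ticam1, the adaptor of the alternative route from Tlr3 and Tlr4 (p = 0.8), overlapped between the groups.

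**Figure D4:**
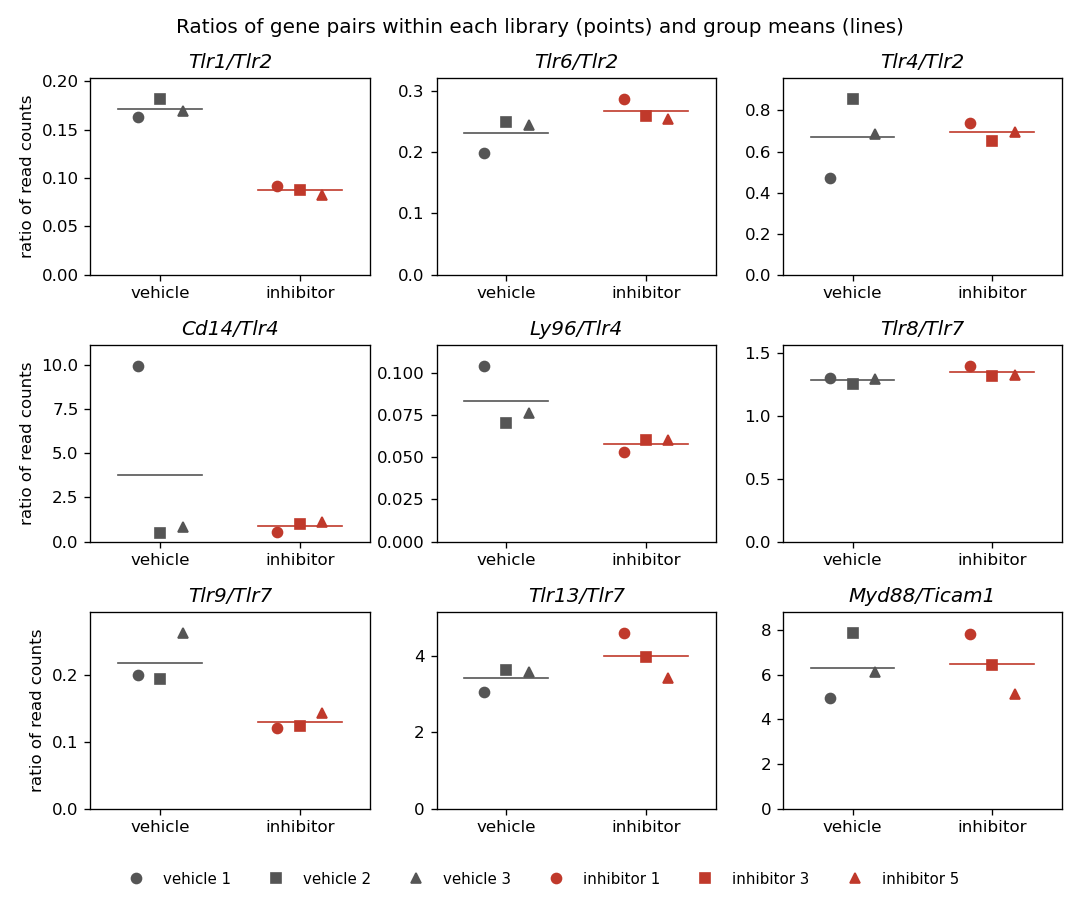
Ratio of the read counts of 2 genes within each library (y axis, one scale per panel, from 0) for 9 pairs, with lines at the group means of 3 libraries. Tlr1/Tlr2 and Tlr9/Tlr7 are lower in all inhibitor libraries, Tlr8/Tlr7 differs by little, and Cd14/Tlr4 is high in vehicle 1 alone.

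The other 4 mouse receptors in the table, Tlr3, Tlr5, Tlr11 and Tlr12, were all lower in every inhibitor library than in any vehicle library, as were 16.2% of all genes tested. Tlr3, the sensor of double-stranded RNA that signals through Ticam1 and not Myd88, was at 5.73, 4.31 and 3.23 CPM with vehicle and at 1.53, 1.04 and 1.104 CPM with inhibitor. It fell by 1.85 ± 0.32 on the log2 scale (edgeR adjusted p = 0.043), the 1 call among the 4. That call was kept without vehicle 1 (-1.61, adjusted p = 0.017) and lost when any other single library was left out (adjusted p from 0.071 without vehicle 2 to 0.18 without inhibitor 3). With limma voom it was lost too (adjusted p = 0.063), and Tlr3 did not pass a filter at 5 CPM. Its exons overlap an opposite-strand gene by 258 bases. Tlr5, the flagellin receptor, was at 17.4, 13.9 and 16.5 CPM with vehicle and 10.1, 9.53 and 5.95 CPM with inhibitor, at -0.90 ± 0.23 (adjusted p = 0.085). Tlr12, like Tlr11 a receptor for the profilin of protozoan parasites, was at 8.72, 4.53 and 5.20 CPM and at 2.73, 3.27 and 3.06 CPM, at -1.02 ± 0.29 (adjusted p = 0.11). Tlr11 stayed under 0.48 CPM in all libraries. In the authors' deposited table, Tlr1 (adjusted p = 0.0066), Tlr9 (0.00061), Tlr3 (5.66e-06), Tlr5 (0.0080) and Tlr12 (0.016) have an adjusted p under 0.05 and the other 8 members do not.

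The proteins that fold, carry and trim the receptors were followed with 18 accessory and trafficking genes. Of these, 2 were called lower and 0 higher (9 and 0 with DESeq2, 2 and 0 with limma voom), against 1.19% of all genes called lower by edgeR and 7.23% by DESeq2. At an unadjusted p under 0.05, 11 were lower against 11.9% of all genes, and 17 had a negative log2 fold change, with a median of -0.74 (-0.55 without vehicle 1). Cd180, a receptor-like partner that restrains Tlr4 signalling in myeloid cells, was at 27.7, 41.3 and 40.3 CPM with vehicle and 11.9, 8.30 and 9.06 CPM with inhibitor, and fell by 1.90 ± 0.22 (edgeR adjusted p = 0.024). Pld4, an exonuclease that digests the endosomal DNA that Tlr9 senses, was at 292, 222 and 260 CPM and at 127, 115 and 106 CPM, and fell by 1.16 ± 0.15 (adjusted p = 0.026). The endosomal proteases Lgmn (-2.73 ± 0.53, adjusted p = 0.054) and Ctsb (-1.59 ± 0.32, adjusted p = 0.056) were not called. Without vehicle 1, Lgmn was at -1.85 (adjusted p = 0.0023) and Ctsb at -1.12 (adjusted p = 0.0056), both past the threshold. Unc93b1, which carries the nucleic acid receptors to endosomes, was at 436, 294 and 342 CPM with vehicle and 248, 237 and 223 CPM with inhibitor, at -0.60 ± 0.17 (adjusted p = 0.10). Ly96 had overlapping groups, at -0.48 ± 0.26 (adjusted p = 0.32). Without vehicle 1, 8 of the 18 were called lower, and without vehicle 3 or any 1 inhibitor library, 0 were. The macrophage marker sum, lower in the inhibitor group, moved with this list, and its part was not tested.

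Of 20 adaptors and kinases tested, 0 were called by edgeR in either direction and 1 was called lower by DESeq2 (1 of 21 listed was not tested). The list also holds Ticam1, the adaptor of the alternative route. Across all genes tested, edgeR called 1.83% in either direction and DESeq2 called 7.23% lower. The median of the list was -0.15. At an unadjusted edgeR p under 0.05, 1 of the 20 was lower, against 11.9% of all genes. That gene was Pik3ap1 (BCAP), an adaptor that links Toll-like receptors to PI3K, at 90.7, 69.1 and 79.1 CPM with vehicle and 57.8, 55.3 and 56.7 CPM with inhibitor (-0.49 ± 0.13, edgeR adjusted p = 0.088). Ikbke, Chuk and Irak2 came next by p, between -0.29 and -0.23 and not called. Without vehicle 1 the median was -0.056, and without vehicle 3 it was -0.040.

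Of 13 transcription factors of the pathway, 2 were called lower and 0 higher (4 and 0 with DESeq2, 1 and 0 with limma voom, where Irf7 was lost at an adjusted p of 0.055), with a median of -0.32. Among all genes tested, edgeR called 1.19% lower and 0.633% higher, and DESeq2 7.23% and 4.9%. Irf5, which Myd88 activates for cytokine genes, was at 116, 118 and 125 CPM with vehicle and at 69.9, 65.6 and 62.03 CPM with inhibitor, and fell by 0.86 ± 0.11 (edgeR adjusted p = 0.024). Irf7, which serves interferon induction by Tlr7 and Tlr9, was at 143, 124 and 93.2 CPM and at 66.1, 45.9 and 44.8 CPM, and fell by 1.20 ± 0.22 (adjusted p = 0.046). Fos (-0.91 ± 0.23, adjusted p = 0.084) and Irf8, a monocyte and dendritic cell factor (-0.64 ± 0.19, adjusted p = 0.11), were not called. Without vehicle 1, 3 were called lower, among them Irf8 (-0.77, adjusted p = 0.034). Without vehicle 2, 1 was called lower, and it was neither Irf5 (edgeR adjusted p = 0.054) nor Irf7 (0.075). Without any 1 of the other 4 libraries, 0 were called.

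Of 18 negative regulators, 0 were called by edgeR or DESeq2 and 0 had an unadjusted edgeR p under 0.05, with a median of -0.12 that was 0.0067 without vehicle 1 and 0.014 without inhibitor 5. Without vehicle 1, edgeR called 1 higher, Nfkbia (0.62, adjusted p = 0.021). The 4 with the smallest p were Atf3 (-0.76 ± 0.34), Sigirr (0.29 ± 0.18), Cd300a (-0.27 ± 0.17) and Nfkbie (-0.23 ± 0.15). Of 7 IL-1 family receptor genes, 0 were called by edgeR or DESeq2 and 0 had an unadjusted edgeR p under 0.05, with a median of 0.28. Receptors of this family signal through Myd88 except the decoy Il1r2, which was in the list, and the median of the other 6 was 0.31. Without vehicle 1 the median of the 7 was 0.13 and 1 was called higher, the decoy Il1r2 (0.85, adjusted p = 0.017). Il1r1 (-0.77 ± 0.37) was the 1 with a negative value, and Il1rl1 (0.40 ± 0.23), Il18rap (0.42 ± 0.35) and Il18r1 (0.39 ± 0.34) were positive, all with overlapping groups. Without vehicle 1, Il1r1 was at -0.22, Il18rap at 0.13 and Il18r1 at 0.098.

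Genes that these receptors are known to induce were tested for 18 of 22 listed, since 3 were not in the table and Cxcl1 did not pass the filter. Of the 18, 1 was called lower and 0 higher (6 and 2 with DESeq2, 0 and 0 with limma voom). Over all genes tested, edgeR called 1.19% lower and 0.633% higher, and DESeq2 7.23% and 4.9%. At an unadjusted edgeR p under 0.05, 8 of the 18 were lower and 2 higher, against 11.9% and 9.68% of all genes. The median was -0.75. Ptgs2, the inducible enzyme of prostaglandin synthesis, was at 6.67, 1.91 and 3.05 CPM with vehicle and at 0.585, 0.595 and 0.425 CPM with inhibitor, and fell by 2.85 ± 0.52 (edgeR adjusted p = 0.047; limma voom 0.085). Il1a was at 26.7, 3.34 and 5.16 CPM and at 1.30, 1.30 and 1.5005 CPM (-3.09 ± 0.79, adjusted p = 0.085), and without vehicle 1 it was at -1.64 and called (adjusted p = 0.015). Il12a went the other way, at 3.73, 2.13 and 3.02 CPM with vehicle and 5.82, 5.25 and 7.502 CPM with inhibitor (1.06 ± 0.28, adjusted p = 0.088; 1.25 and 0.027 without vehicle 1). Sod2 was at -0.52 ± 0.14 (adjusted p = 0.092). Without vehicle 1, 3 genes were called lower and 1 higher, and without vehicle 3 or any 1 inhibitor library, 0 were.

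**Figure D5:**
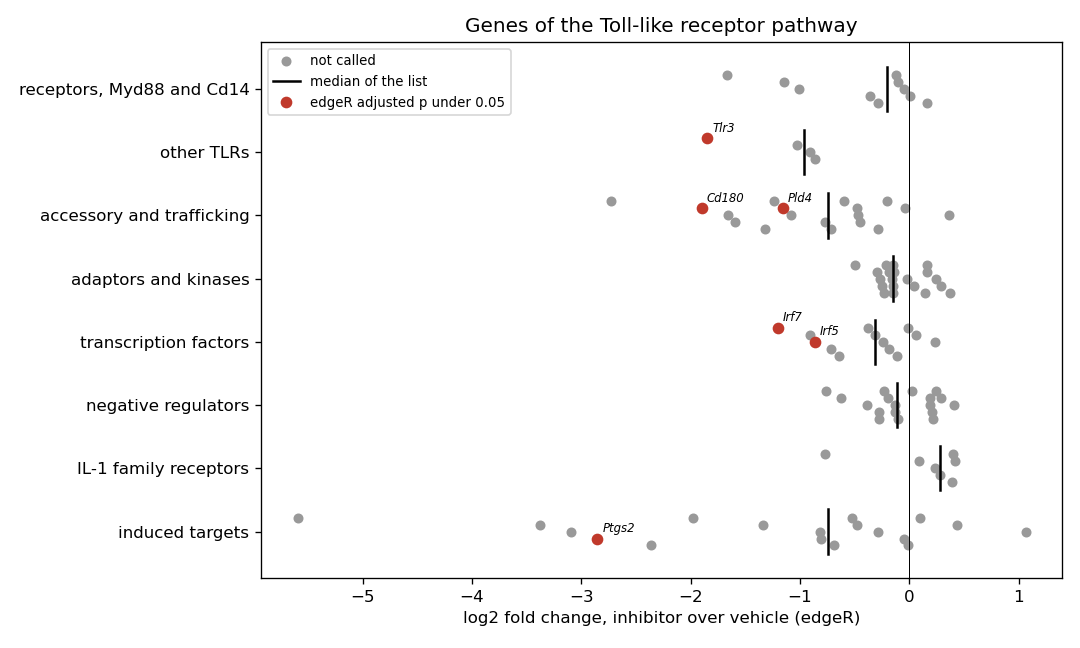
Log2 fold change of inhibitor over vehicle (x axis) of every tested gene of 8 lists, with a line at the median of each list. Red points mark the genes called by edgeR: Tlr3, Cd180, Pld4, Irf7, Irf5 and Ptgs2, all lower in the inhibitor group.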

How the data were processed

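RNA was measured in 3 vehicle and 3 inhibitor libraries of whole bone marrow. Per the labels' protocols, cDNA was made with a SMART-Seq kit for low input and libraries with Nextera XT, which does not mark strand. The submitters' processing notes name STAR, featureCounts and the build mm10. The authors deposited 1 table of read counts per gene and library, with gene lengths in bases. The authors also deposited a comparison of the groups, made by a test the sources used here do not name, with 4 values per gene: the fold (a ratio), its log2, the p-value and the p-value after adjustment. The libraries held 28198638 to 59384880 counts.

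From the deposited counts, edgeR 4.0.16 (R 4.3.3; low counts filtered with filterByExpr, TMM scaling, quasi-likelihood F test on group, Benjamini-Hochberg over 12806 genes, 2186 left out) gave log2 fold changes; the SE is the size of the log2 fold change over the square root of F. The biological coefficient of variation was 25.2%. CPM and RPKM use TMM-scaled sizes. Ratios were compared by exact permutation. The fit was tested on simulated data. Alternatives used DESeq2 1.42.0, limma 3.58.1, other scalings and filters, and left out libraries.

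The members and lists were chosen with earlier results of these data known. Named are the 10 members, in each pathway list the called genes and then the smallest p up to 4, genes of the 9 pairs, and the 5 genes (mean of at least 5 CPM) most like the receptor mean in log2(CPM + 1). In each marker list the rule also names the most abundant and the called genes, given here as counts and sums. Profiles used a pseudocount of 1 CPM.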

Additional observations from a re-analysis of the deposited data

How the results depend on the processing

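Across all genes, the 153 lower and 81 higher calls became 926 and 628 with DESeq2, 55 and 30 with limma voom, 1483 and 1374 with voom quality weights (weight of vehicle 1: 0.161) and 634 and 422 at an adjusted p under 0.10. The quality weights also favoured inhibitor 3, at 4.40 against 0.633 for inhibitor 1 and 0.928 for inhibitor 5. Leaving out 1 library gave 0 to 633 lower and 0 to 401 higher calls: 633 and 401 without vehicle 1, 84 and 7 without vehicle 2, and 0 and 0 without any 1 of the other 4, where 2398, 2174, 1832 and 2223 genes had an unadjusted p under 0.05. Of the 10 members, 0 were called by the reported fit. The number called lower was 2 with DESeq2, 3 with voom quality weights (Tlr1, Tlr9 and Tlr7), 1 with the filter at 5 CPM in 3 libraries (Tlr9, adjusted p = 0.049) and 2 at an adjusted p under 0.10, and 0 to 2 with 1 library left out (2 without vehicle 1). It was 0 under the other alternatives, and 0 were called higher under any. Tlr1 and Tlr9 kept negative values throughout, from -1.29 to -0.80 and from -1.32 to -0.92. The median of all genes moved by under 0.1 in every fit. TPM gave the same order between genes as RPKM.

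Members near 0 changed sign. Tlr4 was at -0.0099 with upper-quartile scaling, -0.34 with voom quality weights, -0.0038 with the 5 CPM filter, and from -0.28 (without inhibitor 1; -0.24 without vehicle 1) to 0.19 with 1 library left out. Tlr6 was at -0.10 with voom quality weights and from -0.14 (without inhibitor 1) to 0.36 with 1 left out. Tlr2 ran from -0.28 to 0.12 (without inhibitor 5; 0.031 without vehicle 3), Tlr13 from -0.37 to 0.10 (without inhibitor 5) and Myd88 from -0.29 to 0.049 (without inhibitor 5; 0.018 without vehicle 3). Cd14 was at 0.048 with voom quality weights and from -2.13 to 0.10 (without vehicle 1). The cause was not tested.

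Only the numbers 1 and 3 occur in both groups, and the labels state no pairing. Same-numbered libraries deviated in opposite directions over 12806 genes (r = -0.51 for 1 and -0.10 for 3). With so few libraries, these values cannot decide whether same-numbered libraries share more than a number. With the replicate number as a block, 7 genes were called lower and 0 higher, 0 of them members and 0 in the pathway lists (Tlr3 adjusted p = 0.23; 1438 genes at an unadjusted p under 0.05). Only the numbers 1 and 3 inform the group difference in that fit. There, Tlr1 was at -0.80, Tlr9 at -1.05, Tlr2 at 0.090, Tlr13 at 0.22 and Myd88 at 0.17. The lowest level of a member was 5.89 CPM (Tlr1 in inhibitor 5), where 1 read is worth 0.0283 CPM.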

Other observations

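The following genes of the same lists fall outside the rule for named genes and were chosen after their values were seen. Among the induced cytokines, Il10 was at 26.7, 0.911 and 1.59 CPM in vehicle libraries 1, 2 and 3 and at 0.293, 0.260 and 0.0566 CPM in inhibitor libraries 1, 3 and 5. Cxcl2, a neutrophil attractant, was at 138, 7.35 and 11.2 CPM with vehicle and at 4.26, 4.61 and 6.20 CPM with inhibitor. In both genes vehicle 1 was far above the rest, as it was for Cd14, and neither was called (edgeR log2 fold change -5.60, adjusted p = 0.097 for Il10; -3.37, 0.14 for Cxcl2). Without vehicle 1, Il10 was at -2.67 and called (adjusted p = 0.032) and Cxcl2 was at -0.89 and not called (0.068). Tnf, the classical product of Tlr4 stimulation, was at 6.01, 10.1 and 9.82 CPM and at 10.7, 8.52 and 6.45 CPM, and Il1b at 111, 73.7 and 105 CPM and at 134, 60.03 and 43.6 CPM. Both had overlapping groups.

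The endosomal proteases that can cleave Tlr7 and Tlr9 were lower in all inhibitor libraries than in any vehicle library. Ctss was at 1611, 600.02 and 681 CPM with vehicle and at 346, 291 and 281 CPM with inhibitor, and Ctsl at 229, 106 and 99.6 CPM and at 60.4, 55.9 and 67.5 CPM. Pld3, an exonuclease related to Pld4, was at 145, 62.5 and 65.5 CPM and at 30.4, 38.9 and 39.9 CPM. Ly86, the partner of Cd180, was at 133, 96.8 and 88.3 CPM and at 63.4, 59.7 and 63.6 CPM. None of these 4 was called by edgeR (adjusted p from 0.063 to 0.088), and each had an unadjusted p under 0.05. Without vehicle 1 all 4 were called lower: Ctss at -1.07, Ctsl at -0.75, Pld3 at -0.82 and Ly86 at -0.57 (adjusted p from 0.0088 to 0.020). Both the macrophage and the monocyte marker sums were lower in the inhibitor group, and their part in these values was not tested.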
